A study of Mus musculus with 6 samples.

Results

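The BCL2 family decides whether the outer membrane of mitochondria is opened during apoptosis, and 10 of its genes were followed here in primary mouse lung fibroblasts (LFs): Bcl2, Bcl2l1, Mcl1, Bcl2a1b, Bcl2a1d, Bax, Bak1, Bid, Bcl2l11 and Bbc3. They were chosen by symbol, with earlier results of these data known, and each was found once among the 55364 genes of the raw count tables. RNA was profiled by Quant-Seq, in which cDNA synthesis starts at the poly(A) tail and each transcript is read near its 3′ end. There were 3 libraries of wt LFs and 3 of LFs labelled TKS5 knockout, which the study calls Tks5+/-, the name used here. Tks5, encoded by Sh3pxd2a, is a scaffold protein of podosomes. All 6 cultures had received 10 ng/ml of TGFβ1 in medium without serum for 24 h, so that no untreated LFs enter the comparison. The study describes LFs from mice of 8 to 10 weeks on a C57Bl6/J background, used at passage 2 to 3, and heterozygous mice whose targeted allele is altered in all tissues. Wt and Tks5+/- LFs came from littermates, and the study describes its samples as independent without saying for these libraries whether each was a separate animal or culture, or which of the 2 Tks5+/- alleles they carried. The p-values measure the spread between these libraries.

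Apoptosis through mitochondria is set by the balance of 3 kinds of BCL2 protein. Pro-survival members (the products of Bcl2, Bcl2l1, which encodes BCL-XL, Mcl1 and the Bcl2a1 genes) hold the effectors BAX and BAK in check. BH3-only proteins, among them BID, BIM (from Bcl2l11) and PUMA (from Bbc3), are induced or activated by stress and bind the pro-survival proteins or the effectors. Once active, BAX and BAK form pores, cytochrome c leaves the mitochondria and caspases are activated. In fibrosis research the family is known from the long survival of myofibroblasts, the contractile state that TGFβ induces in LFs. Much of this control acts on the proteins, whose amounts and activity the RNA counts do not measure.

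The Bcl2a1 genes are near-identical copies, and their sequences are shown first because they limit what a count can be assigned to. On mouse build GRCm38, Bcl2a1b lies on chromosome 9 at chr9:89199209-89207827 on the forward strand and Bcl2a1d at chr9:88723285-88731914 on the reverse strand, with a further copy, Bcl2a1a, at chr9:88956900-88962419 between them. Their annotated coding sequences of 516 bases differ at 6 positions between Bcl2a1b and Bcl2a1d (98.8% identical). From the stop codon to the annotated end, where Quant-Seq reads fall, all 150 aligned bases were the same. Of the 301 stretches of 50 bases in the last 350 bases of the Bcl2a1b transcript, 201 (66.8%) also occurred in Bcl2a1d and 110 (36.5%) in Bcl2a1a. The first 30 coding bases hold the densest differences, and the 5 positions at which the 3 genes are not all alike are in capitals.
Bcl2a1b: atgGctgagtACgagTtcatgTatatccac
Bcl2a1d: atgTctgagtACgagTtcatgTatatccac
Bcl2a1a: atgGctgagtCTgagCtcatgCatatccac

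Around the RefSeq starts (build GRCm38.p6) the copies were also alike, with 247 of 250 aligned bases shared by the Bcl2a1b and Bcl2a1d promoters. The promoters compared run from before the start to a short way past it. Gaps were left out, so these aligned bases are not the same stretch as the bases printed below. The 250 bases before the start are given for both, at chr9:89199023-89199272 (forward strand) and chr9:88731851-88732100 (reverse strand). The capitals mark GAGGAAGT, a box bound by PU.1, a factor of myeloid cells encoded by Spi1. It begins 148 bases before the RefSeq start in Bcl2a1b and 104 in Bcl2a1d, though the bases that follow the box are nearly alike. The distances therefore depend on where each start is annotated. Both RefSeq starts lie inside the gene spans given above, so the printed bases run into those spans. Bcl2a1b has bases directly before the box that Bcl2a1d lacks.
Bcl2a1b: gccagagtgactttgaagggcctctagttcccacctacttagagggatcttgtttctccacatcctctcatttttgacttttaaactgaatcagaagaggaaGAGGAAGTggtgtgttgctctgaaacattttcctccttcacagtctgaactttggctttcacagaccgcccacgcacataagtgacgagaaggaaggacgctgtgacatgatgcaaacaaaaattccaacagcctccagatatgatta
Bcl2a1d: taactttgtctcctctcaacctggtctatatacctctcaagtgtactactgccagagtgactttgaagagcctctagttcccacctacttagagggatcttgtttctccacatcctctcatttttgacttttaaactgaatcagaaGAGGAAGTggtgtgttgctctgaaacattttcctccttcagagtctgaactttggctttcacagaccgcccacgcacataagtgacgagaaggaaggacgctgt

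Of the 10 members, Bcl2a1b, Bcl2a1d and Bak1 held the PU.1 box within 250 bases before to 50 after a start, on either strand, as did 3.2% of all 32851 promoters of that length. The pattern TGANTCA, a loose form of the AP-1 site (7.8% of all promoters), was in the promoters of Bcl2a1b and Bcl2a1d alone among the members. In both, the open position N was an A on the printed strand. The SP1 box GGGCGG (35.7%) was in those of 8 members, all but Bcl2l1 and Bak1, and TATAAA (13.6%) was in none. Matches to different motifs did not overlap. These are matches of letters, searched after the sequences had been seen, and not measured binding.

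The libraries held 1344507 to 2369882 counts. Counts were scaled by the TMM method of edgeR, which corrects library size for a few very abundant or shifted genes, and are given as CPM, counts scaled to a common library size. The groups were compared by the quasi-likelihood F test of edgeR, and adjusted p-values are Benjamini-Hochberg values across the 10346 genes that passed the filter on low counts. Called genes have an adjusted p under 0.05 together with a fold change of 1.2 or more. Values are mean ± SD, and an exact two-sided permutation test of 3 libraries against 3 cannot give a p below 0.1. Sh3pxd2a gave 205, 190 and 284 counts in the wt libraries and 238, 258 and 260 in the Tks5+/- libraries and was not called (adjusted p = 0.249). Its counts come from 3′ UTR regions and not from the targeted exon, and which allele was carried is not stated. Whether these tags would show the altered allele was not tested, and the genotype is taken from the labels. Of the 12 fibroblast markers, all passed the filter, with summed levels of 9218 to 11540 CPM in wt LFs and 10200 to 14210 in the Tks5+/- libraries. These sums are mostly Acta2 and Col1a1. Of the 12 markers 4 were called higher and 2 lower, beside 22.8% and 22.1% of all genes tested. They ran from Thy1 (3.82-fold higher) and Vim (2.41-fold higher) to Pdgfrb (2.00-fold lower) and Fn1 (2.92-fold lower). Markers of macrophages stood high in 1 library, wt replicate 3, with 2534 CPM summed over 16 genes against 410 and 479 in the other wt libraries and 137 to 157 in the Tks5+/- libraries. The Y-linked Ddx3y was also 7.17-fold lower in Tks5+/- LFs while Xist was at 0 in every library, a further difference between the cultures.

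Of the 9 members tested, 6 were called, among a background in which 44.9% of all genes were called. Mcl1 was the 1 member called higher in Tks5+/- LFs, where 22.8% of all genes were called higher. Bcl2, Bcl2l1, Bcl2a1b, Bax and Bak1 were the 5 called lower, against 22.1% of all genes. Of these, Bcl2a1b passed the filter on low counts through the wt libraries alone, where it was high. Bid, Bcl2l11 and Bbc3 were not called, and Bcl2a1d did not pass the filter. The median log2 fold change of the 9 members was -0.72, beside -0.05 over all genes tested, with the quartiles of all genes at -0.67 and 0.63. For 5 of the 9 members the CPM of the groups did not overlap, which was true of 53.8% of all genes. The plot of CPM by library shows these groups apart for Mcl1, Bcl2l1 and Bak1 and mixed for the BH3-only genes. Scaling by library totals alone moved the median of all genes to -0.47 and the calls over all genes from 2356 higher and 2286 lower to 1362 higher and 3944 lower. Under it, Mcl1 stayed the 1 member called higher, at a log2 fold change of 1.07.

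**Figure D1:**
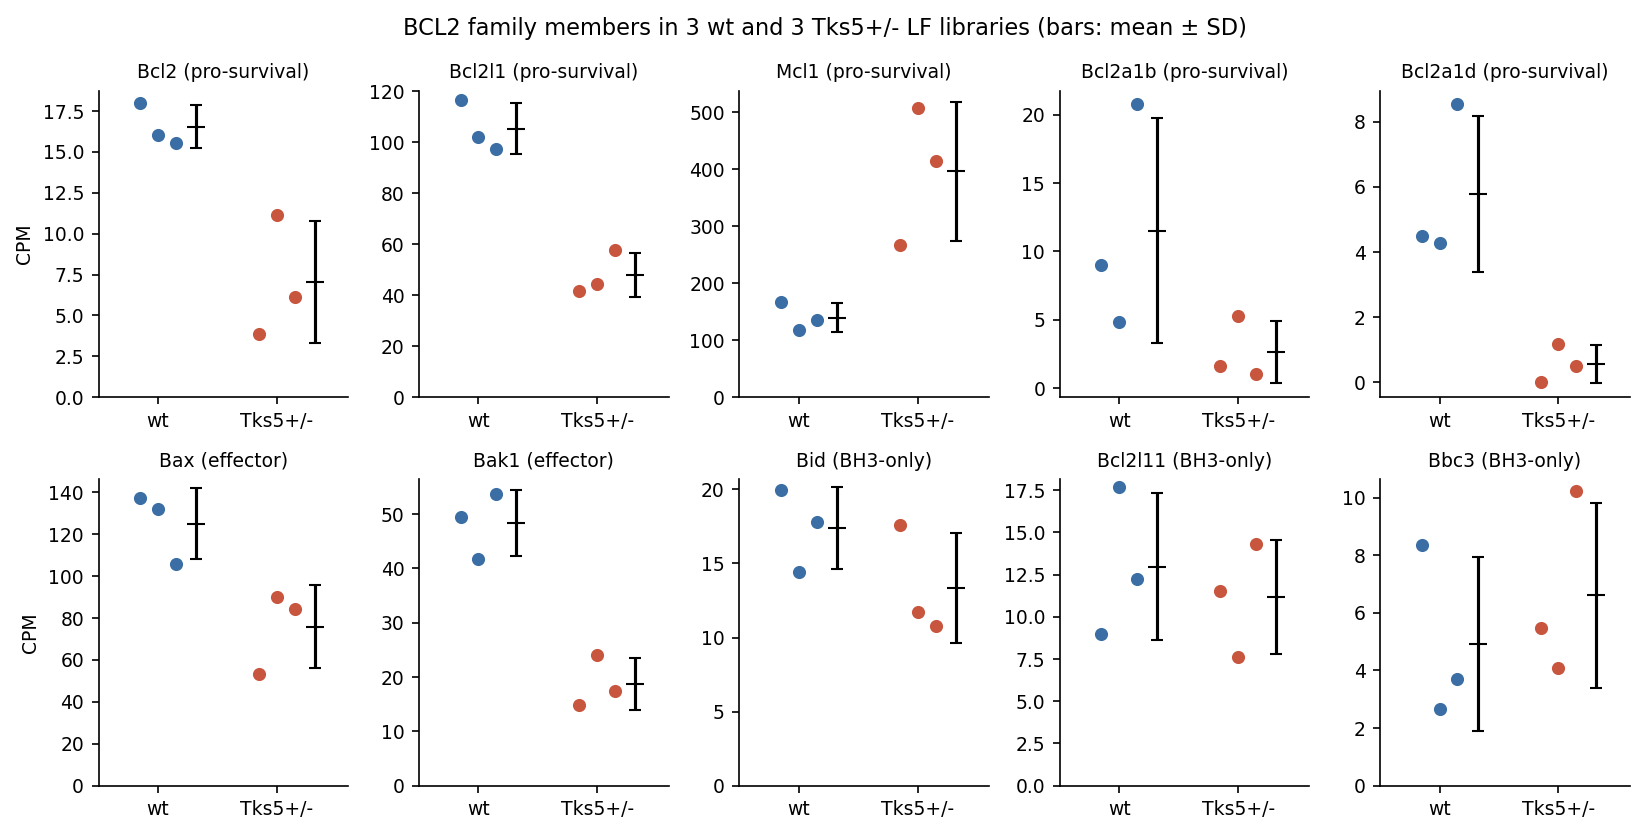
CPM (y axis, from 0 or just below, a separate scale per gene) of the 10 members in the 3 wt and 3 Tks5+/- libraries (points), with mean ± SD as bars. Mcl1 lies between 117 and 167 CPM in wt LFs and between 267 and 509 in the Tks5+/- libraries, while Bak1 and Bcl2l1 lie lower in every Tks5+/- library.

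Among the pro-survival genes Mcl1 stood apart. Its product is a short-lived protein that restrains BAK and BIM, and the gene lies at chr3:95658788-95663176 on the forward strand. Mcl1 had 260, 219 and 363 counts in wt replicates 1, 2 and 3 (140 ± 25.5 CPM, n = 3) and 487, 869 and 809 in the Tks5+/- replicates (397 ± 122 CPM, n = 3). Every Tks5+/- library was above every wt library, and Tks5+/- replicate 1 was the lowest of its group. The level was 2.84-fold higher in Tks5+/- LFs, or 1.51 on the log2 scale with a 95% interval of 1.02 to 2.00 (standard error 0.24, adjusted p = 2.43e-05). Of the 4956 genes with a log2 fold change above 0, 726 had one at least as large as that of Mcl1. It was called under all 17 alternative settings, at log2 fold changes of 1.07 to 1.78.

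Bcl2l1, whose product BCL-XL guards BAX and BAK at the mitochondrial surface, went the other way. It spans chr2:152780668-152831728 on the reverse strand. The gene gave 181, 191 and 263 counts in the wt libraries (105 ± 9.89 CPM, n = 3) and 76, 76 and 113 in the Tks5+/- libraries (48.0 ± 8.62 CPM, n = 3). The groups did not overlap, and the highest Tks5+/- library reached 57.8 CPM against 97.5 in the lowest wt library. This was 2.19-fold lower in Tks5+/- LFs (log2 fold change -1.13, standard error 0.22, adjusted p = 0.000216). The call held under all 17 alternatives, with log2 fold changes of -1.55 to -0.82.

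Bcl2, the founding member of the family (chr1:106538178-106714274, reverse strand), was counted less often. It gave 28, 30 and 42 counts in the wt libraries (16.6 ± 1.30 CPM, n = 3) and 7, 19 and 12 in the Tks5+/- libraries (7.03 ± 3.72 CPM, n = 3). All Tks5+/- libraries lay below all wt libraries, with Tks5+/- replicate 1 lowest. The level was 2.35-fold lower (log2 fold change -1.23, standard error 0.38, adjusted p = 0.0109). Without Tks5+/- replicate 1 the log2 fold change was -0.89 and the call was lost (adjusted p = 0.0679), as it was with DESeq2 at nearly the same log2 fold change (-1.21, adjusted p = 0.0691) and with a correction for transcript length and GC content (-0.77, adjusted p = 0.12). The 3′ end of Bcl2 overlaps D630008O14Rik on the other strand, which had no count in any library.

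The Bcl2a1 genes encode A1, a pro-survival protein known best from leukocytes. Bcl2a1b gave 14, 9 and 56 counts in the wt libraries (11.5 ± 8.27 CPM, n = 3) and 3, 9 and 2 in the Tks5+/- libraries (2.65 ± 2.29 CPM, n = 3). Wt replicate 3 alone reached 20.8 CPM, and the groups overlapped, since Tks5+/- replicate 2 was at 5.27 and wt replicate 2 at 4.82. Bcl2a1b was called 4.57-fold lower (log2 fold change -2.19, standard error 0.60, adjusted p = 0.00572), while the exact permutation test of its CPM gave p = 0.2. It passed the filter on low counts through the wt libraries alone, so that a lower level in Tks5+/- LFs is partly built into the test. Without wt replicate 3 its log2 fold change was -1.38 and it was not called (adjusted p = 0.0949).

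Bcl2a1d gave 7, 8 and 23 counts in the wt libraries and 0, 2 and 1 in the Tks5+/- libraries. The groups did not overlap, with 4.28 CPM in the lowest wt library and 1.17 in the highest Tks5+/- library. Summed over libraries, these were 38 and 3 counts, a ratio of wt to Tks5+/- of 11.4 at equal scaled depth (95% exact binomial interval 3.60 to 57.5). Without wt replicate 3 the ratio was 8.01 (2.27 to 43.2). Such intervals cover counting error only, since PCR copies of a read cannot be told from separate molecules. Some alternatives did test Bcl2a1d, but all of them kept wt replicate 3, so no call is read from them.

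Because a read from the shared end need not belong to 1 copy, the counts of Bcl2a1a (2, 1 and 17 in wt LFs, 0, 2 and 0 in the Tks5+/- libraries), Bcl2a1b and Bcl2a1d were added, a sum chosen after seeing the data. The sum was 23, 18 and 96 in wt LFs and 3, 13 and 3 in the Tks5+/- libraries, with no overlap. The sum, too, passed the filter through the wt libraries, and the same limit holds for it. Tested in the same way, the summed copies differed by -2.54 ± 0.61 on the log2 scale (the error is the standard error, adjusted p = 0.00447). Without wt replicate 3 this was -1.77 ± 0.56 (adjusted p = 0.0123).

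Bcl2a1 counts and summed macrophage markers were both highest in wt replicate 3 and lower on average in Tks5+/- LFs. Lyz2, the lysozyme of macrophages and the marker with most counts, gave 298, 337 and 3502 counts in the wt libraries and 139, 157 and 207 in the Tks5+/- libraries. Cathepsin S (Ctss) gave 71, 87 and 988 counts in the wt libraries and 17, 29 and 28 in the Tks5+/- libraries. Of the 16 macrophage markers 11 were tested, of which 6 were called lower and none higher, beside 22.1% and 22.8% of all genes. All of those called lower but Csf1r passed the filter only through the wt libraries, so that a lower level in Tks5+/- LFs is partly built into their test. Spi1, Ptprc and Adgre1 were at 0 in all Tks5+/- libraries, which allows up to 3 counts in each. Spi1, the gene of PU.1, gave 4, 8 and 69 counts in the wt libraries. Markers of endothelial cells also differed, with 118 to 146 CPM summed over 8 genes in wt LFs and 45.6 to 60.4 in Tks5+/- LFs. Of the 5 tested, 4 were called lower, with Pecam1, which leukocytes also express, at 0 in Tks5+/- LFs and Kdr at 2 counts at most. All of these 4 but Egfl7 passed the filter only through the wt libraries. Ramp2, the endothelial marker with most counts after Egfl7, was not called, at 25.8 ± 5.07 CPM in wt LFs and 31.7 ± 4.73 in Tks5+/- LFs (SD, n = 3 each). The epithelial markers Cdh1 and Epcam were at 0 in Tks5+/- LFs while Ager was higher there, and the sums over 8 genes overlapped (32.1 to 66.4 CPM in wt LFs and 29.7 to 62.0 in Tks5+/- LFs). Of the mesothelial markers Upk3b was called lower, again tested through the wt libraries alone. Lymphocyte markers reached at most 3.84 CPM summed over 9 genes. Of the neutrophil markers S100a8, which macrophages also express, was the 1 tested, through the wt libraries alone, and was called lower. S100a9 and Csf3r were at 0 in every library. The summed mast cell and basophil markers were higher in Tks5+/- LFs (35.7 to 48.1 CPM, against 8.37 to 9.27 in wt LFs), most of it Mcpt8. Mcpt8 was the 1 called, and it passed the filter only through the Tks5+/- libraries. Gata2 was not called (adjusted p = 0.167). Hdc had 1, 2 and 4 counts in the wt libraries and 0, 0 and 1 in the Tks5+/- libraries, and Cpa3 and Fcer1a were at 0 throughout. In bulk RNA, fewer cells of a type and less RNA per cell cannot be told apart, and the part of these cells in the Bcl2a1 counts was not tested. Without wt replicate 3, Mcl1, Bcl2l1, Bcl2, Bax and Bak1 kept their calls.

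**Figure D2:**
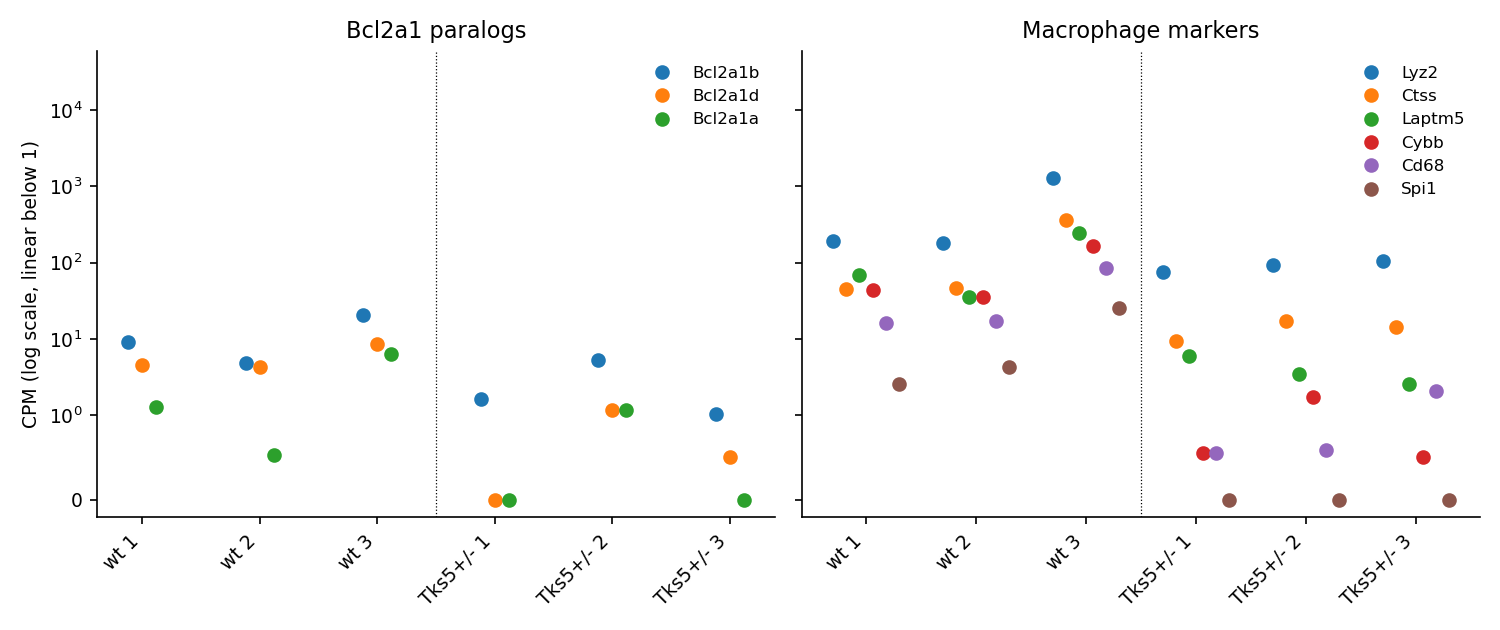
CPM (y axis, log scale, linear below 1) of the 3 Bcl2a1 copies (left) and of 6 macrophage markers (right) in each library on the x axis, the vertical line parting wt from Tks5+/- LFs. Both sets peak in wt replicate 3, and Spi1 lies at 0 in all 3 Tks5+/- libraries.

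Both effectors were lower in Tks5+/- LFs. Bak1 encodes BAK, which sits in the outer membrane of mitochondria, and lies at chr17:27019810-27029009 on the reverse strand. Bak1 gave 77, 78 and 145 counts in the wt libraries (48.4 ± 6.10 CPM, n = 3) and 27, 41 and 34 in the Tks5+/- libraries (18.7 ± 4.73 CPM, n = 3). The groups were apart, with 41.7 CPM in the lowest wt library and 24.0 in the highest Tks5+/- library. The difference was 2.59-fold (log2 fold change -1.37, standard error 0.26, adjusted p = 0.000173) and was called under all 17 alternatives, at -1.80 to -1.04. The 3′ end of Bak1 overlaps Ggnbp1 on the other strand, which had 3 to 14 counts in wt LFs and 5 to 7 in the Tks5+/- libraries; the methods do not say whether counting kept to the strand.

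Bax encodes BAX, which moves from the cytosol to mitochondria when activated, and lies at chr7:45461697-45466898 on the reverse strand. It gave 213, 247 and 285 counts in the wt libraries (125 ± 16.9 CPM, n = 3) and 97, 154 and 165 in the Tks5+/- libraries (75.9 ± 19.9 CPM, n = 3). The groups did not overlap, but the highest Tks5+/- library (90.1 CPM) came close to the lowest wt library (105.7 CPM). Bax was 1.64-fold lower (log2 fold change -0.72, standard error 0.23, adjusted p = 0.0126). The call was lost without wt replicate 2 (-0.68, adjusted p = 0.0505) and without Tks5+/- replicate 1 (-0.46, adjusted p = 0.0984).

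None of the 3 BH3-only members was called. Bid, whose product is cut by caspase-8 and links death receptors to mitochondria (chr6:120891930-120916853, reverse strand), gave 31, 27 and 48 counts in the wt libraries (17.4 ± 2.77 CPM, n = 3) and 32, 20 and 21 in the Tks5+/- libraries (13.3 ± 3.69 CPM, n = 3). The groups overlapped, and the log2 fold change of -0.38 had a 95% interval of -1.04 to 0.28 (adjusted p = 0.343). Its 3′ end overlaps that of Bcl2l13 on the other strand, which had 32 to 55 counts in wt LFs and 27 to 40 in the Tks5+/- libraries and was not called.

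Bcl2l11, the gene of BIM, which responds to loss of growth factors (chr2:128126038-128162547, forward strand), gave 14, 33 and 33 counts in the wt libraries and 21, 13 and 28 in the Tks5+/- libraries. These were 13.0 ± 4.37 and 11.2 ± 3.38 CPM (n = 3 each). The groups overlapped, and the interval ran from -0.96 to 0.53 (log2 fold change -0.21, adjusted p = 0.654). Bbc3, the gene of PUMA and a target of p53 (chr7:16308393-16318205, forward strand), gave 13, 5 and 10 counts in the wt libraries and 10, 7 and 20 in the Tks5+/- libraries. With 4.92 ± 3.03 and 6.61 ± 3.22 CPM (n = 3 each), the groups overlapped, and the interval of -0.54 to 1.54 (log2 fold change 0.50, adjusted p = 0.433) holds both signs. At this depth, differences of the size seen for Bax were within the intervals of Bid and Bcl2l11, and a rise of 1.51, that of Mcl1, was within the interval of Bbc3.

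**Figure D3:**
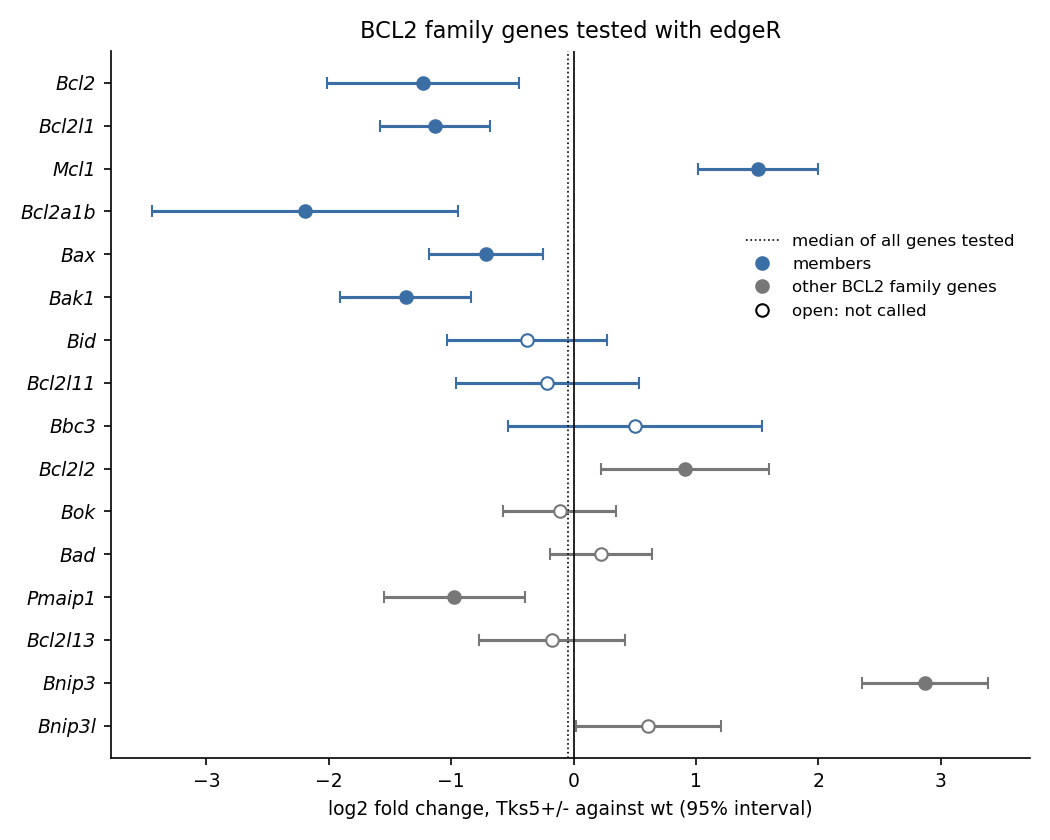
Log2 fold change of Tks5+/- against wt LFs (x axis) with 95% intervals for the 9 members tested (blue) and the 7 other BCL2 family genes tested (grey), open points for genes not called. Mcl1, at 1.51, is the 1 member to the right of 0 with a filled point, and 5 filled points of members lie to the left.

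The number of counts of one member against another within a library does not depend on scaling. Reads start at the transcript end, so that a ratio of counts is read here only between libraries and not as a ratio of molecules. The summed counts of the 5 pro-survival members to those of Bax and Bak1 stood at 1.69, 1.41 and 1.74 in wt LFs (1.61 ± 0.179, n = 3) and at 4.62, 5.00 and 4.71 in Tks5+/- LFs (4.78 ± 0.198, n = 3). All Tks5+/- libraries were above all wt libraries. Bcl2l1 to Bax, a ratio without Mcl1, was 0.850, 0.773 and 0.923 in wt LFs and 0.784, 0.494 and 0.685 in Tks5+/- LFs, with the groups overlapping.

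The next ratios were chosen after the values had been seen. Mcl1 made up 53.1%, 47.9% and 48.6% of the pro-survival counts in wt LFs and 85.0%, 89.1% and 86.3% in Tks5+/- LFs. Without Mcl1, the pro-survival to effector ratio turned around, from 0.793, 0.732 and 0.893 in wt LFs to 0.694, 0.544 and 0.643 in Tks5+/- LFs, again with no overlap. The ratio of Mcl1 to Bcl2l1 averaged 1.32 ± 0.154 across the wt libraries and 8.33 ± 2.71 across the Tks5+/- libraries (SD, n = 3 each). Between the effectors, Bax to Bak1 was 1.97 to 3.17 in wt LFs and 3.59 to 4.85 in Tks5+/- LFs, without overlap. These are descriptions of libraries, with no test.

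**Figure D4:**
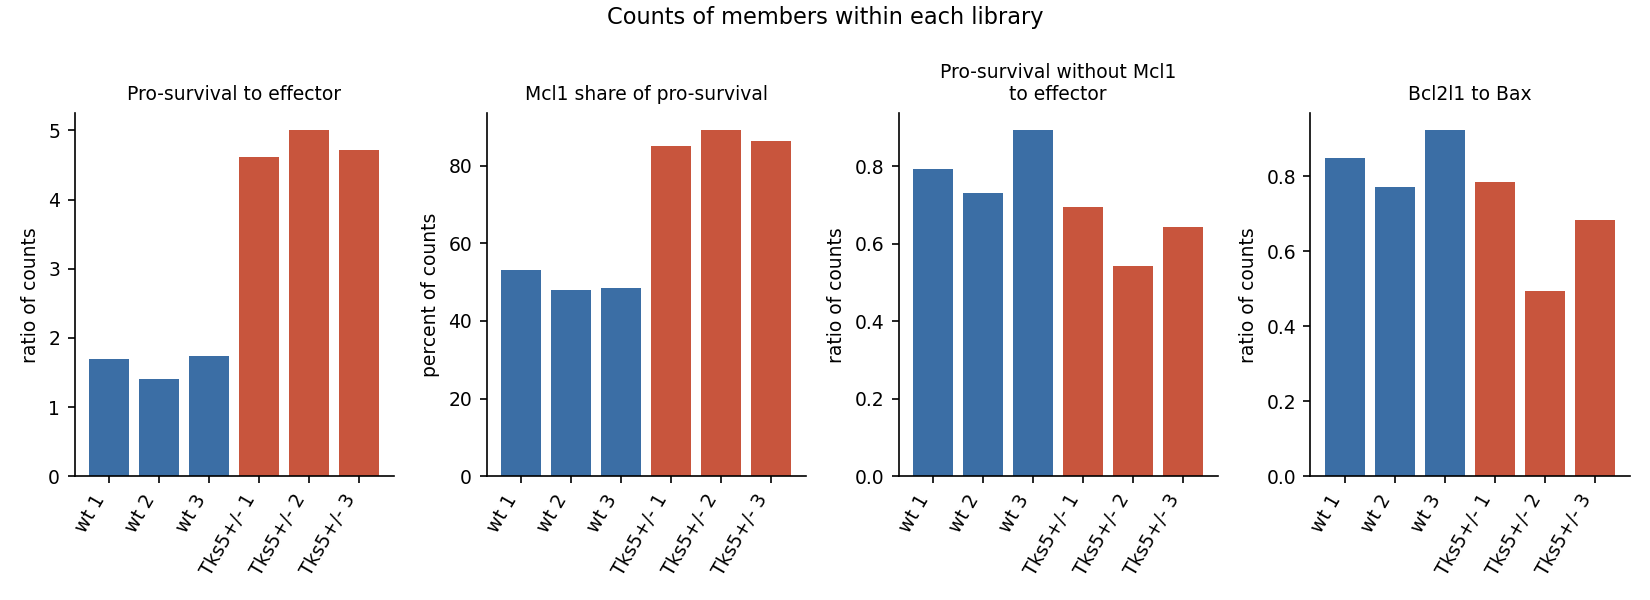
Ratios of counts and, in the second panel, the percentage of pro-survival counts from Mcl1 (y axes, from 0) in each of the 6 libraries (x axes, wt in blue, Tks5+/- in red). The bars for pro-survival to effector counts are higher in all Tks5+/- libraries, and those without Mcl1 are lower.

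The other 16 genes of the family that were looked up added 7 tested genes, of which 2 were called higher and 1 lower, with a median log2 fold change of 0.22. Bnip3, a mitochondrial BH3-like protein of mitophagy that hypoxia induces, gave 182, 343 and 523 counts in the wt libraries and 2157, 1556 and 3004 in the Tks5+/- libraries. It was 7.32-fold higher (log2 fold change 2.87, standard error 0.25, adjusted p = 1.45e-08). Bcl2l2, which encodes the pro-survival BCL-W, had 17 to 22 counts in wt LFs and 25 to 38 in the Tks5+/- libraries and was 1.88-fold higher (adjusted p = 0.0286). Pmaip1, the gene of NOXA, a BH3-only protein that binds MCL1, gave 81, 93 and 111 counts in the wt libraries and 24, 55 and 53 in the Tks5+/- libraries. Its level was 1.97-fold lower (log2 fold change -0.97, standard error 0.28, adjusted p = 0.00665). The groups of all 3 genes were apart, and Bok, Bad, Bcl2l13 and Bnip3l were not called.

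Downstream of the mitochondria, 3 of the 13 genes tested for the apoptosome, caspases and their inhibitors were called higher and 3 lower, with a median log2 fold change of 0.24. Casp6, an executioner caspase, was 3.23-fold higher (adjusted p = 2.1e-05). Diablo, whose product is released by BAX and BAK pores and blocks inhibitors of apoptosis, was 2.48-fold higher (adjusted p = 0.000156). Birc6 and Birc2, which encode such inhibitors, were 2.25-fold lower (adjusted p = 0.00303) and 1.91-fold lower (adjusted p = 0.00827).

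At the outer membrane itself, all 11 genes were tested, of which 5 were called higher and 3 lower. Vdac3 and Vdac1, channel proteins of that membrane, were 2.80-fold higher (adjusted p = 8.32e-06) and 2.49-fold higher (adjusted p = 2.74e-05). Dnm1l, which divides mitochondria, was 3.42-fold lower (adjusted p = 5.68e-05), and Mfn1, which fuses them, was 2.77-fold lower (adjusted p = 0.000347). Of the 10 death receptor and adaptor genes tested, upstream of BID, 2 were called lower and none higher. Tnfrsf10b, the TRAIL receptor, was 3.35-fold lower (adjusted p = 5.6e-05) and Fadd, the adaptor that recruits caspase-8, was 2.64-fold lower (adjusted p = 0.0153). Fadd passed the filter on low counts only through the wt libraries, so that a lower level in Tks5+/- LFs is partly built into its test. In all, 19 of 41 tested genes of these 4 lists were called, 10 higher and 9 lower, a share near the 44.9% of all genes that were called.

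How firmly each member stands is shown by the plot of members under the alternative settings. Mcl1, Bcl2l1 and Bak1 were called under every one of the 17 settings. Bcl2, tested in 16, was called in 12, and Bcl2a1b, also tested in 16, in 15. Bcl2a1b had passed the main filter through the wt libraries alone. Bax was called in 15 of 17. Bid was called in 1 (library totals alone, log2 fold change -0.79, adjusted p = 0.0498), and Bcl2l11 and Bbc3 in none.

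**Figure D5:**
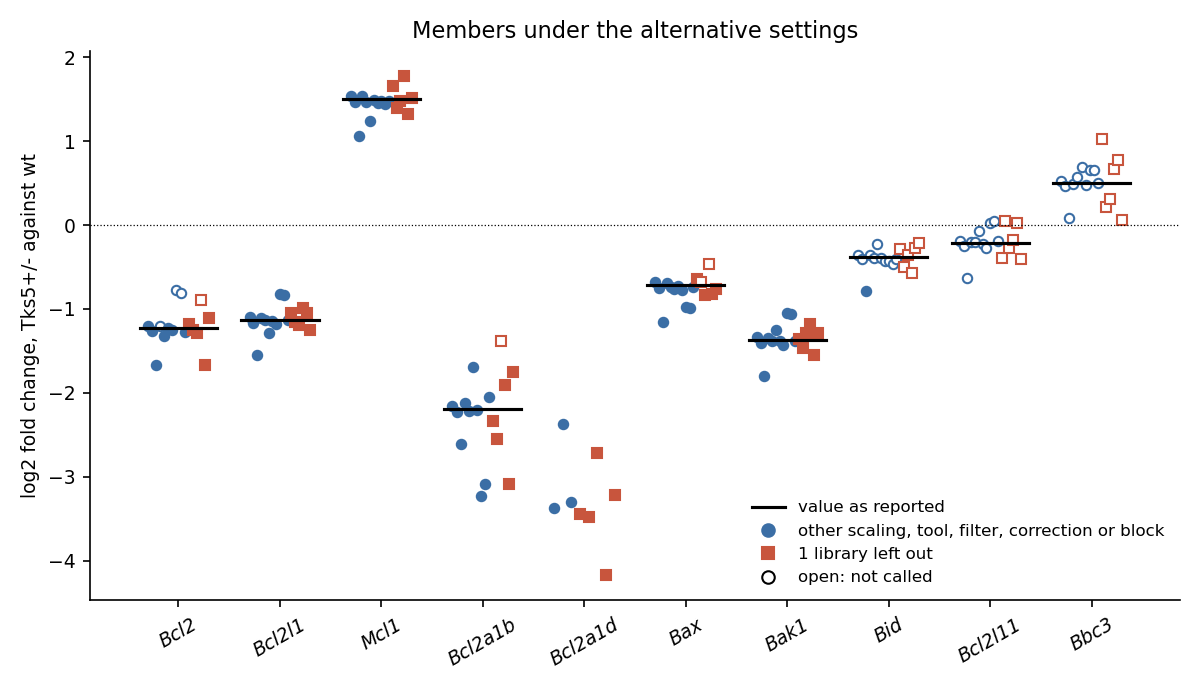
Log2 fold change of each member (y axis) under the alternative settings, with blue circles for other scalings, tools, filters, corrections and the block, red squares for fits with 1 library left out, open symbols where the member was not called and a black line for the value reported. Bcl2a1d has no line because it did not pass the filter, its points all include wt replicate 3, and Bcl2l11 has points on both sides of 0.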

How the data were processed

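Raw counts per gene in 6 Quant-Seq libraries were deposited by the authors, who trimmed reads with Trim Galore (Phred 20), aligned them to GRCm38 with HISAT2 and then BOWTIE2, counted them on 3′ UTR regions (minimum 300 bases, 50 flanking) with metaseqR2 and summed them per gene. Strand use and multi-mapping reads are not stated. A table of normalized counts, rounded by the authors and used as a score in 1 alternative, came from EDASeq and holds the same sorted values in all 6 libraries. Gene IDs (55104 of 55364) were matched to GENCODE GRCm38 symbols. Counts were tested with edgeR 4.0.16 under R 4.3.3, using TMM factors, filterByExpr, robust quasi-likelihood F tests and Benjamini-Hochberg adjustment. Standard errors come from that fit. The alternatives used limma 3.58.1, DESeq2 1.42.0, other scalings, filters and corrections for transcript length and GC content (loess span 0.5, prior count 2; pseudocount 1 for the normalized counts). Named were all members, in each further list the 2 called genes with the smallest adjusted p in each direction, and the most counted markers. Spi1, Ptprc, Adgre1, Csf1r, Pecam1, Kdr, Ramp2, Thy1, Vim, Pdgfrb, Fn1, Cdh1, Epcam, Cpa3, Fcer1a, Gata2, Hdc, S100a9, Csf3r, Ddx3y, Xist, Bcl2a1a and overlapping genes were added after their values were seen. Members, lists and tests were chosen with earlier results of these data known. Protein sequences were not analysed here. Plots were made with matplotlib 3.10.9.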

Additional observations from a re-analysis of the deposited data

How the results depend on the processing

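The number of members called was 4 to 7 over the 17 alternatives, with 1 called higher in each, and 5 were called without wt replicate 3. The settings with 7 took in Bcl2a1d or, with library totals alone, Bid. The 4 came from requiring at least 10 counts in every library, which left 6 members to test. Over all genes 3705 to 5306 were called, against 4642. The members' median moved from -0.72 to -1.15 with library totals alone, a scaling under which the median of all genes was -0.47. The log2 difference of the pro-survival to effector ratio moved from 1.57 to 1.36 in the authors' normalized counts. Bcl2l11, which was not called, changed sign under the length and GC correction without the block (0.026) and with it (0.051), without wt replicate 2 (0.051) and without Tks5+/- replicate 2 (0.022), in a range of -0.41 to 0.051 over the fits with 1 library left out; the cause was not tested. Replicate numbers are shared by the groups, but deviations of same-numbered libraries correlated at only -0.001, -0.064 and 0.082, so the numbers were not taken to pair libraries. With the replicate number as a block, 4668 genes and 6 members were called, with the members' median at -0.73. Few counts limit Bcl2a1b, Bcl2a1d, Bcl2, Bid, Bcl2l11 and Bbc3.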
